A study of Caenorhabditis elegans with 4 samples.

Results

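The sites described here are the NHR-76 binding peaks in the centre of Caenorhabditis elegans chromosome V. They are the peaks of the combined list on V whose centre lies from 7 Mb up to, but not including, 14 Mb, in genome build WS180. The rule used position alone. It gave 286 of the 3635 combined peaks, or 286 of the 667 on chromosome V, and the same stretch held 132 of the 1562 replicate 1 peaks and 286 of the 3676 replicate 2 peaks.

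All worms were L4 hermaphrodites of strain OP203, grown at 20 °C. They carried the unc-119 allele ed3 and the transgene wgIs203, introduced by bombardment. In it nhr-76 is joined to TY1, EGFP (a fluorescent protein) and FLAG tags, beside a copy of unc-119. The genotype lists no change of the native nhr-76 gene. Chromatin was crosslinked with 2% formaldehyde and precipitated with an antibody against GFP, in 2 ChIP samples with 2 input samples. The inputs come from the same strain, no untagged strain was analysed here, and no label says whether the replicates were separate cultures.

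NHR-76 is a nuclear hormone receptor, one of a greatly expanded worm family of zinc-finger transcription factors, many of them related to mammalian HNF4. Such receptors bind DNA through the zinc fingers and carry a domain that can bind small ligands. In C. elegans NHR-76 is known for work in the intestine, where it links neuronal signals to fat loss through the triglyceride lipase gene atgl-1. The centres of worm autosomes are known to hold more conserved and essential genes, and the arms more repeats and more recombination. The arms of chromosome V are also known for their many chemoreceptor genes. No annotation or sequence of build WS180 was used here, so the sites below have positions and strengths but no gene names.

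For every peak the lists give its limits and the q-value of the authors' peak caller, and a smaller q-value marks a stronger peak. Read counts are not part of the lists, so depth is unknown. A q-value comes from a single list and has no error of its own. The members had a median width of 306.5 bp, with quartiles at 204.5 and 498 bp and a range from 1 to 2356 bp. They covered 111.3 kb, or 1.59% of the stretch. Replicate 1 peaks covered 51.6 kb of it, or 0.737%. The median q-value was 4.31e-06 for the members and 1.44e-05 for the replicate 1 peaks.

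**Figure D1:**
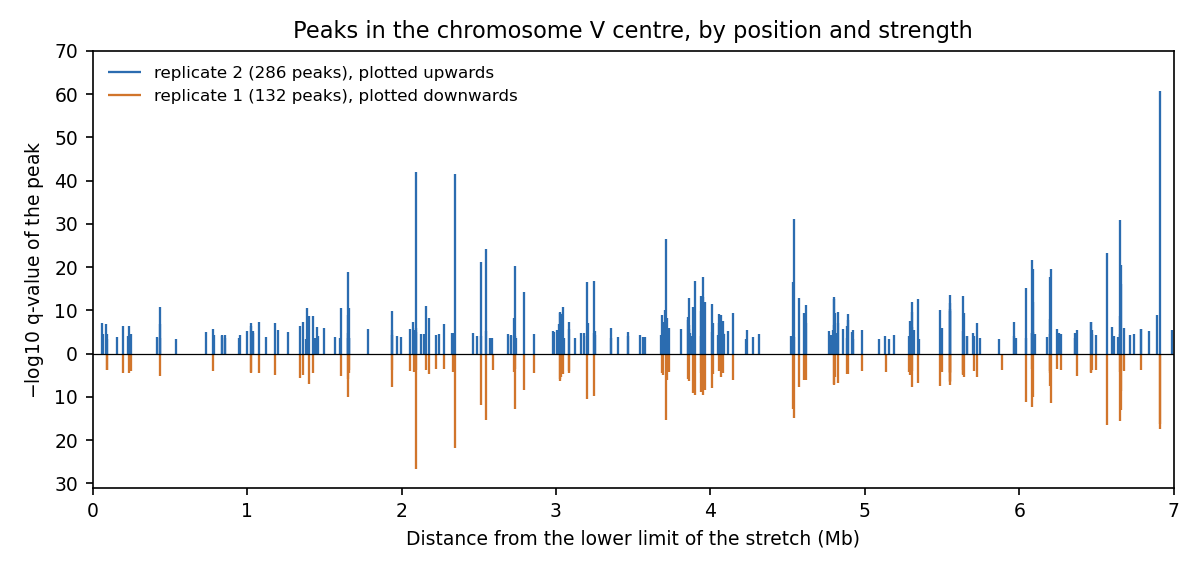
Peaks of the V centre by distance from the lower limit of the stretch (x axis, Mb) and strength (y axis, −log10 q-value), with replicate 2 drawn upwards and replicate 1 downwards, 1 line a peak. The tallest line in replicate 2 is the site at 13907419 (q = 1.69e-61), while in replicate 1 it is the site at 9095482 (q = 2.28e-27).

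Peaks were unevenly spread along the stretch. From 7 Mb upwards, its 7 segments of 1 Mb held 24, 36, 37, 58, 50, 35 and 46 members. The segment from 10 to 11 Mb was therefore the fullest and the one from 7 to 8 Mb the emptiest. Replicate 1 gave 7, 15, 18, 26, 20, 21 and 25 peaks in the same order, with its highest and lowest counts in the same segments. The 7 to 8 Mb segment was also the weakest, since none of its members ranked in the first 500 of the combined list. Its median q-value was 4.18e-05, its smallest 1.64e-11 and its median width 215 bp. By contrast, 11 members from 13 to 14 Mb and 9 from 10 to 11 Mb ranked in the first 500, and the median width from 10 to 11 Mb was 387.5 bp.

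**Figure D2:**
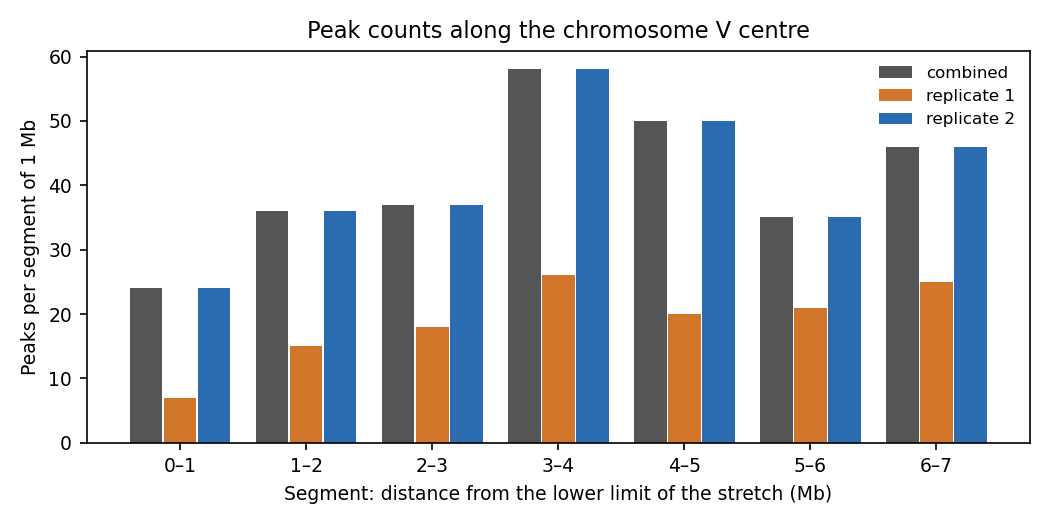
Number of peaks in each segment of 1 Mb (y axis) against distance from the lower limit of the stretch (x axis), for the combined list, replicate 1 and replicate 2. All 3 lists have their highest count in the segment from 10 to 11 Mb (58, 26 and 58 peaks) and their lowest from 7 to 8 Mb (24, 7 and 24 peaks). In both segments the combined list repeats replicate 2.

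The largest stretch with no member ran for 207.1 kb, from 11314408 to 11521460, and it was empty in each of the 3 lists. Replicate 1 had a longer empty stretch of 439.6 kb, from 10246809 to 10686409. The combined list placed 12 members there, with a median width of 225 bp and a median q-value of 5.87e-05. The strongest of these 12, at 10355980 to 10356230, had a q-value of 1.37e-06 and ranked 1609. The sites that replicate 1 lacked there were thus mostly weak, though the strongest had a smaller q-value than the members' median of 4.31e-06. In both of these stretches replicate 2 repeats the combined list, so it adds no separate value. Nearly all replicate 1 peaks overlapped replicate 2 peaks, so the lack of replicate 1 peaks in the first stretch adds little.

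The strongest sites were not evenly placed either. Among the 20 strongest members present in both replicates, 8 lay from 13 to 14 Mb, 5 from 9 to 10 Mb, 4 from 10 to 11 Mb, 2 from 11 to 12 Mb and 1 from 8 to 9 Mb. None lay from 7 to 8 Mb or from 12 to 13 Mb. They ranked from 16 to 242 in the combined list, and their width ran from 324 to 2356 bp with a median of 913 bp. In 18 of the 20 a single replicate 1 peak covered the site, and 7 of the 20 overlapped a replicate 1 peak ranked in the first 100 of that list. Outside the segment from 9 to 10 Mb, the q-values of the members were those of replicate 2 as well, because the lists repeat each other there.

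The strongest and widest member lay at 13907419 to 13909774 on V. Its width was 2356 bp and its q-value 1.69e-61, rank 16 of the combined list and 15 of replicate 2. In replicate 1 it was covered by a pair of separate peaks, one of 1487 bp with a q-value of 7.02e-17 and one of 594 bp with a q-value of 4.86e-18. A single wide site in replicate 2 was thus split in replicate 1, where the pieces ranked 81 and 72.

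The next sites in strength lay between 9 and 10 Mb. The site at 9095482 to 9096016 had a width of 535 bp and q-values of 1.05e-42 in the combined list, 1.12e-42 in replicate 2 and 2.28e-27 in replicate 1. It was the strongest replicate 1 site of the stretch, rank 29 there against 38 in the combined list. The site at 9342978 to 9344629 had a width of 1652 bp and q-values of 2.76e-42 in the combined list and 1.66e-22 in replicate 1, rank 42. Its centre differed by 1 bp between the replicates, and its replicate 1 peak of 1573 bp was the widest of that list in the stretch. Of the stretch's replicate 1 peaks, these ranked first and second. The other 3 strong sites of this segment, at 9546810, 9516307 and 9730989, had replicate 1 q-values of 3.68e-16, 1.59e-12 and 1.35e-13.

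A row of strong sites lay between 13649658 and 13659016. The first, 1005 bp wide, had a q-value of 1.07e-31 and one of 3.42e-16 in replicate 1. The site at 13656035 to 13657691, of 1657 bp, had a q-value of 2.65e-21, and replicate 1 split it into a weak peak (q = 1.67e-04, rank 1433) and a stronger one (q = 1.93e-09, rank 296). The site at 13658313 to 13659016 had a q-value of 1.01e-16. The row gave its 50 kb window, from 13650001, the most peak-covered sequence of the 140 such windows in the stretch, 4543 bp in the combined list and 3223 bp in replicate 1. Of the 6 members of that window, 5 overlapped replicate 1, and the other was a 297 bp peak at 13652180 (q = 3.65e-05).

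The window ranked second by covered sequence, from 13050001 to 13100000, held 7 members that covered 4453 bp. The first and last of these members were the sites at 13081093 to 13081722 (q = 2.58e-22, 5.01e-13 in replicate 1) and 13089771 to 13090933 (q = 2.78e-20, 1.17e-10 in replicate 1). Replicate 1 had 3 peaks in the window, so its support was thinner than in the row above. Between the first and last of the 7, the site at 13085079 to 13086161 (1083 bp, q = 1.25e-12) was the strongest member with no replicate 1 peak. In the window that came next, from 10850001 to 10900000, 9 members covered 4056 bp and 4 of them overlapped replicate 1. Its strongest was a site of 324 bp at 10897182 to 10897505, with q-values of 1.27e-17 and, in replicate 1, 2.28e-10.

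Further strong sites lay outside these windows. At 11540182 to 11541905 the member spanned 1724 bp and had a q-value of 8.58e-32, and replicate 1 covered it with 1289 bp at 1.64e-15. A weaker neighbour at 11531821 to 11532711 had q-values of 2.55e-17 and 1.73e-13 and nearly the same edges in both replicates, 891 bp against 892 bp. The pair at 13200208 and 13202107 had q-values of 1.60e-18 and 2.74e-20, with replicate 1 values of 2.78e-08 and 4.65e-12. In both pairs of neighbours the stronger site was the same in the 2 replicates. The sites at 10711765 (1191 bp, q = 3.09e-27) and 13565050 (596 bp, q = 4.80e-24) had close replicate 1 values, 4.44e-16 and 3.58e-17, ranks 91 and 78.

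The last 3 of the 20 lay from 8 to 9 Mb and from 10 to 11 Mb. The site at 8654991 to 8655422, 432 bp wide, had q-values of 1.18e-19 and 7.91e-11. The sites at 10953195 (1089 bp) and 10246252 (935 bp) had q-values of 2.25e-18 and 2.07e-17, and replicate 1 covered only part of each, 705 and 523 bp. All 3 ranked between 228 and 258 in replicate 1 and between 196 and 238 in the combined list.

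Recurrence in replicate 1 was not used to choose the members, and it divided them by strength. Of the 286 members, 123 overlapped a replicate 1 peak (43.0%, 95% CI 37.4 to 48.8), where 40.4% of all combined peaks did. The replicate 1 list is the shorter one, with 1562 peaks. With every list cut to that length by rank, 80.3% of the members still in the combined list recurred. That cut drops the weaker members. The share was then 3.59 percentage points above that of the rest of the genome (Fisher's exact test, unadjusted p = 0.425). Sorted by q-value into 5 ranges of near-equal size, 54 of 58, 40 of 57, 18 of 57, 9 of 57 and 2 of 57 members recurred, from strongest to weakest. The share was 93.1% (95% CI 83.6 to 97.3) in the strongest range, with q-values up to 4.37e-10, and 3.51% (95% CI 0.968 to 11.9) in the weakest, with q-values from 9.16e-05. Peaks elsewhere showed the same fall over these ranges. The shares were 97.0%, 74.4%, 36.25%, 9.38% and 5% on the rest of V. On the other chromosomes they were 95.2%, 62.1%, 24.5%, 12% and 2.89%. Recurring members were wider, with a median of 440 bp against 246 bp for the other 163. The intervals, by Wilson's method, cover no error but that of counting.

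**Figure D3:**
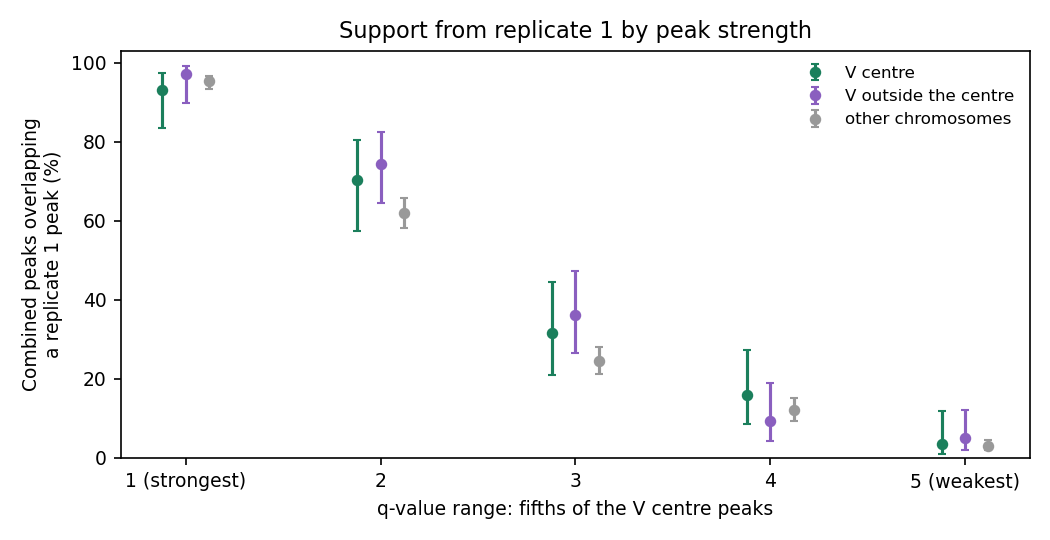
Share of combined peaks that overlapped a replicate 1 peak (y axis, percent) in 5 ranges of q-value (x axis), each with about the same number of V centre members, for the V centre, the rest of V and the other chromosomes; bars are 95% Wilson intervals. In all 3 sets the share falls from over 90% in the strongest range (93.1% in the V centre) to 5% or less in the weakest (3.51% in the V centre).

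Some strong members had no replicate 1 peak. After the site at 13085079, these were 7436480 to 7437264 (785 bp, q = 1.64e-11), 8384004 to 8385411 (1408 bp, q = 2.36e-11), 10704839 to 10705167 (329 bp, q = 7.44e-11) and 11056331 to 11056869 (539 bp, q = 6.30e-10). The one at 7436480 was also the strongest site from 7 to 8 Mb, and the one at 8384004 was among the 5 widest members. They ranked from 460 to 730 in the combined list.

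In the other direction nearly all replicate 1 peaks recurred. Of 132 in the stretch, 127 overlapped a replicate 2 peak (96.2%, 95% CI 91.4 to 98.4), where 96.5% of all replicate 1 peaks did. The 5 exceptions were 4 to 73 bp wide, with a median of 27 bp. They lay at 12549398, 12137468, 7091170, 9590365 and 12886133, had q-values from 3.51e-05 to 1.62e-04, and none overlapped a combined peak. The first of them was the closest to a replicate 2 peak, its centre 531.5 bp away. No replicate 1 peak of the stretch wider than 73 bp was therefore missing from replicate 2.

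Across the 119 pairs that overlapped one to one, replicate 2 gave the smaller q-value in 117 (98.3%) and the wider peak in 102 (85.7%). Over the 1310 pairs outside the stretch these shares were 97.4% and 89.8%, so the shift was not particular to it. In the stretch the median q-value was 1.08e-05 in replicate 1 and 1.99e-09 in replicate 2. The median of the differences in log10 q, replicate 2 minus replicate 1, was -3.12 (quartiles -5.38 and -1.81). Replicate 1 peaks had a median width of 308 bp and their partners one of 432 bp, and in 83 pairs the replicate 1 peak lay wholly inside that of replicate 2. Centres differed by a median of 21 bp (20.75 bp outside the stretch) and by over 100 bp in 18 pairs. Despite the shift in q, the order of strength was alike, with a Spearman's rho of 0.86 for q and 0.86 for width. Outside the stretch rho for q was 0.82. These are descriptions across peaks of the same 2 libraries. Of the 20 strongest replicate 1 peaks in the stretch, 17 had a counterpart among the 20 strongest of replicate 2.

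**Figure D4:**
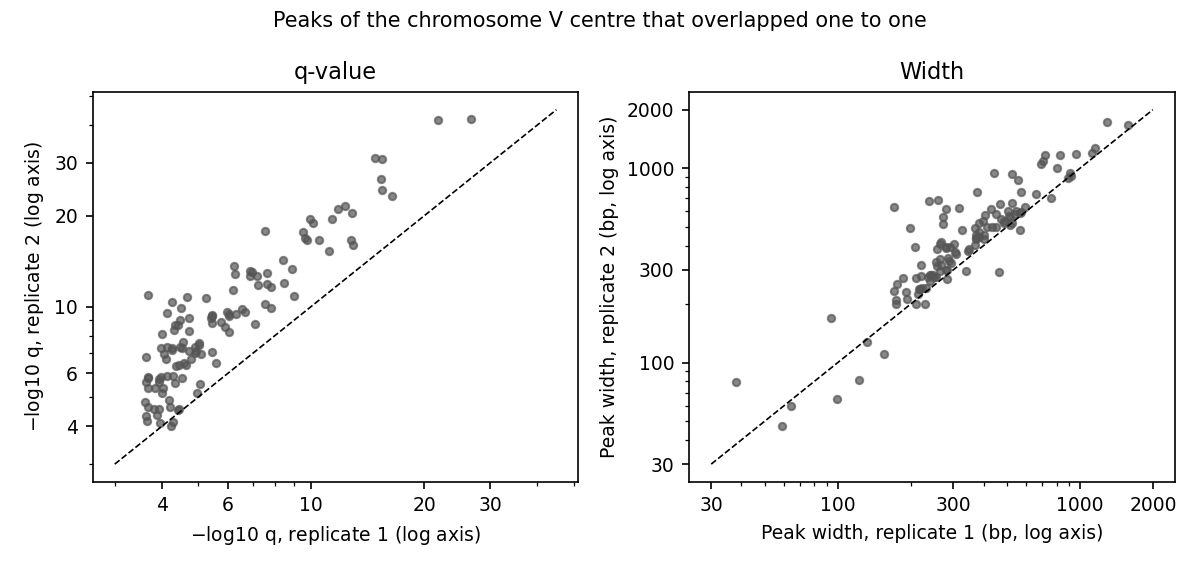
The 119 one-to-one pairs of the V centre, replicate 1 on the x axis and replicate 2 on the y axis, all axes logarithmic, for −log10 q (left) and width in bp (right); each point is a pair and the dashed line marks equal values. Of the 119 points, 117 lie above the line on the left and 102 on the right.

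The pairs that went the other way were both weak. At 10719637 the q-value was 5.11e-05 in replicate 1 and 7.13e-05 in replicate 2, and at 12285678 it was 5.81e-05 and 9.90e-05. The site at 9342978 stood at the other extreme, with a difference of -19.8 in log10 q. It was followed by 11540182 (-16.3) and 13649658 (-15.5), which were also strong, wide sites. The next pair, at 9095511 (-15.3), was strong but only 474 bp wide in replicate 1. Differences of such size need a very small q-value in replicate 2, so only strong sites could show them. The strongest member, at 13907419, overlapped 2 replicate 1 peaks and so was not among the pairs.

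Width and strength went together. Across the 286 members Spearman's rho of log10 q and width was -0.71, a description across peaks. The 22 members of 800 bp or more covered 26.5 kb, or 23.8% of the sequence under the members, and their median q-value was 2.31e-17. Of these 22, 19 overlapped replicate 1 (86.4%), compared with 104 of the 264 narrower ones (39.4%), where 40.4% of all combined peaks did. The narrower members were also weaker, with a median q-value of 8.35e-06. Shares by width were not computed for peaks outside the stretch. All 11 replicate 1 peaks of 800 bp or more in the stretch overlapped one of these wide members. Only 4 members were split between 2 replicate 1 peaks, and no member between 2 replicate 2 peaks. At the narrow end, 15 members were under 50 bp wide, with a median q-value of 1.94e-04, and 2 of them overlapped replicate 1.

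Most members, 219 of 286, stood alone. With gaps of up to 1000 bp counted as close, 67 members (23.4%, 95% CI 18.9 to 28.7) had a close neighbour and the median gap between neighbours was 8.97 kb. In replicate 1 the close share was 22.7% (95% CI 16.4 to 30.6). On the rest of V, the combined list had close shares of 27.1% below 7 Mb and 19.0% above 14 Mb. The members of the stretch formed 21 pairs and 7 longer groups with 25 members in all. The longest was the group of 5 from 13081093 to 13086846, of which 2 overlapped replicate 1. Groups of 4 lay at 10857043 to 10860210, with 1 member in replicate 1, and at 12300200 to 12304134, with 2. The group of 3 at 12636256 to 12639061 was the one whose members all recurred, under 4 replicate 1 peaks. By count, the fullest window of 50 kb ran from 10000001 to 10050000, with 12 members and 6 replicate 1 peaks, while 38 of 140 windows held no member.

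The stretch was compared with the rest of its chromosome. It held 40.9 combined peaks per Mb, against 31.3 per Mb below 7 Mb and 23.6 per Mb above 14 Mb, the outer limits being the first and last peak of V. In replicate 1 the densities were 18.9, 15.5 and 11.3 per Mb, in the same order. The ranges over segments of 1 Mb overlapped, with 24 to 58 members inside the stretch and 12 to 52 in the 14 segments outside it. The segment from 6 to 7 Mb, just outside, held 52 peaks, more than any segment of the stretch but that from 10 to 11 Mb. The densities are a description, and gene density was not taken into account. The limits of 7 and 14 Mb were not matched to the borders of the chromosome arms, so the rest of V need not be arm alone. At the lower limit, the last peak outside was 6998208 to 6998606 (q = 1.21e-04) and the first inside 7060275 to 7060680 (q = 9.54e-08). At the upper limit, the last inside was 13986807 to 13987135 (q = 3.49e-06) and the first outside 14008313 to 14008765 (q = 4.29e-07).

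For recurrence, no difference from the rest passed the test. The share of combined peaks found in replicate 1 was 43.0% inside and 44.9% (171 of 381, 95% CI 40.0 to 49.9) on the rest of V. The difference was -1.87 percentage points (95% interval -9.40 to 5.72; Fisher's exact test, two-sided, p = 0.637, adjusted p = 0.637 over 2 tests). Against the rest of the genome, where the share was 40.2% (1346 of 3349), the difference was 2.82 points (95% interval -3.04 to 8.84; same exact test, p = 0.380, adjusted p = 0.637). Neighbouring peaks are not independent, so these p-values are too small.

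Width and strength are given beside those elsewhere without a test. The median width was 306.5 bp in the stretch, 300 bp on the rest of V and 295 bp on the other chromosomes, and the median q-values were 4.31e-06, 3.68e-06 and 3.30e-06. Peaks of 800 bp or more made up 7.69% (95% CI 5.13 to 11.4) of the members. They made up 9.19% (95% CI 6.68 to 12.5) of the combined peaks on the rest of V and 7.31% (95% CI 6.43 to 8.30) of those on the other chromosomes. The strongest single site of the chromosome lay outside the stretch, at rank 2 of the combined list, whereas the stretch began at rank 16. In replicate 1 the median width was 302.5 bp in the stretch, 326 bp on the rest of V and 340 bp on the other chromosomes. Its median q-values there were 1.44e-05, 1.10e-05 and 5.65e-06, so replicate 1 peaks of the stretch had the largest median q of these 3 sets. The median difference in log10 q between replicates was -3.12 in the stretch, -2.88 over the 163 pairs on the rest of V and -3.46 over all 1310 pairs outside the stretch.

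The combined list could not serve as a further replicate here. Of the 286 members 285 overlapped replicate 2 (99.7%), where 98.6% of all combined peaks did, and 251 (87.8%) had the start, end and q-value of a replicate 2 peak, where 72.1% of all combined peaks had. In 6 of the 7 segments all 249 members were such copies. The exception in the stretch was the segment from 9 to 10 Mb, where 2 of 37 were. The rest of V showed the same block pattern, each segment of 1 Mb holding either 100% copies or at most 3.57%. From 9 to 10 Mb, 36 pairs of a combined and a replicate 2 peak were compared. The combined peak was narrower in 34 and equal in 2, by a median of 9 bp, and 17 pairs had the same q-value. The same segment held the member that overlapped neither replicate, 9318065 to 9318317 (253 bp, q = 1.55e-04, rank 3118). It also held the replicate 2 peak of the stretch with no combined counterpart, 9461118 to 9461124 (7 bp, q = 2.11e-05). The strong sites at 9095482 and 9342978 lie in this segment, and each was present in all 3 lists.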

How the data were processed

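The deposited files are 3 peak lists from ChIP-seq of L4 worms, for ChIP replicates 1 and 2 and a list named as combined. Samples were grouped by title. Coordinates are in build WormBase WS180, per the file headers. The lines name PeakSeq as the authors' caller, and the deposited q-value is its value for each peak. Aligner, caller version, q cut-off, use of the inputs and the making of the combined list are not stated in any source used here. Input reads were not analysed here.

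Peaks were assigned to the stretch by their centre and ranked genome-wide by q-value, then chromosome and start. Peaks overlapped if they shared at least 1 bp. Shares have 95% Wilson intervals, and differences of shares have Newcombe intervals and Fisher's exact test with Benjamini-Hochberg adjustment over 2 tests. Overlap, pairing and the exact test were tested on simulated data. The peaks named were the 20 of smallest q found in both replicates, the 5 widest, the 5 strongest lacking in the other replicate on each side, those in neither, those at the limits and those of the 3 windows of 50 kb with most covered sequence. Gap ends, groups, the fullest window and the pairs at either extreme of the q difference were added after their values were seen. The members and tests were chosen with earlier results of these data known. Alternatives were other overlap rules, thresholds, lists and limits. Tests used scipy 1.17.1 and numpy 2.4.6 in Python 3.11.15, tables pandas 2.3.3 and figures matplotlib 3.10.9.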

Additional observations from a re-analysis of the deposited data

How the results depend on the processing

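Of 54 alternative values, 38 stayed close to the main value. For shares, medians, density ratios and rho that meant within its 95% interval, which treats peaks as independent. For a count it meant within 1.5 times, and for a difference in recurrence the same sign and the same side of the test. The share of members in replicate 1 was 35.0% with centres within 100 bp. It was 80.3% of the members left with lists of equal length, which drops the weaker ones. Replicate 1 peaks were found in replicate 2 at a share of 81.8% with a reciprocal overlap of 50%, 76.5% with centres within 100 bp, 100% in the better-scoring 50% of each list, 73.5% with lists of equal length and 98.4% without peaks under 50 bp. The difference in recurrence from the rest of V turned to 0.33 points in the better-scoring 50% and 0.51 points with the replicate 2 list in place of the combined list. No alternative of the differences had an unadjusted p under 0.05 in the exact test (lowest 0.213, of 18). The number of peaks was 136 in the better-scoring 50% and 123 among those in both replicates, a setting added after seeing the data, with median widths of 446.5 and 440 bp. Another setting added then left out the segment from 9 to 10 Mb. It gave a share of 42.6% of members in replicate 1. Its differences in recurrence were -2.31 points from the rest of V and 2.38 points from the rest of the genome. Leaving out either replicate list gave 132 to 286 peaks, median widths of 302.5 to 310 bp and density ratios to the rest of V of 1.40 to 1.42, against 1.49 in the combined list. Spearman's rho was 0.91 for pairs by reciprocal overlap, and the median difference in log10 q was -5.24 in the better-scoring 50% of replicate 1. The shorter lists hold fewer peaks by construction; other causes were not tested. No paired analysis was possible because no result compares ChIP with input samples. Depth, unknown here, limits any reading of list length.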

Other observations

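Edges rarely coincided between the replicates. Of the 119 one-to-one pairs of the stretch, 7 shared a start, 9 shared an end and none shared both. The q-values were not all distinct, with 269 different values among the 286 members and 122 among the 132 replicate 1 peaks, so ranks within a tie rest on position.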
